A study of Rattus norvegicus with 8 samples.

Results

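The genes described here encode 10 small secreted peptides of the brain: galanin (Gal), vasoactive intestinal peptide (Vip), neurotensin (Nts), the substance P and neurokinin A precursor (Tac1), cholecystokinin (Cck), PACAP (Adcyap1), gastrin-releasing peptide (Grp), neuromedin S (Nms), neuromedin U (Nmu) and C-type natriuretic peptide (Nppc). They were chosen by symbol, and they make up 10 of the 15892 symbols listed for both tissues. RNA sequencing was done on 4 libraries of hypothalamus and 4 of hippocampus from male rats of the outbred Sprague Dawley strain. At 2 months of age the rats were put on a diet rich in the omega-3 fatty acid DHA and on drinking water with 15% fructose, and both were kept up for 6 weeks. Every library, of either tissue, came from rats given both fructose and DHA, so no diets are compared, and rats on DHA without fructose were not analysed here. Whether the 4 libraries of a tissue are 4 animals is not in the labels, so the spread given below is between libraries and may be technical.

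Neuropeptides of this kind are made as longer precursors, cut and stored in dense-core vesicles, and act on G protein-coupled receptors of neighbouring cells. C-type natriuretic peptide is an exception, since its receptor is a membrane guanylyl cyclase. In the hypothalamus such peptides mark groups of neurons that control feeding, body temperature, sleep, hormone release and daily rhythm, and Vip, Grp and Nms mark neurons of the suprachiasmatic nucleus, the circadian pacemaker. In the hippocampus Vip and Cck mark classes of GABA interneurons, and Cck is also made by many pyramidal neurons.

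Values are FPKM, fragments scaled to transcript length and library size, scaled here by a factor per library (1.07 to 1.12 for hypothalamus, 0.892 to 0.950 for hippocampus). Each tissue has a table of its own, and tissue and table cannot be told apart. The glycolysis gene Gapdh, active in all cells, averaged 581 ± 125 FPKM in hypothalamus and 6.19 ± 1.66 FPKM in hippocampus (SD, n = 4 each). No test was therefore made across the tables, and levels were set side by side. A gene that averaged 1 FPKM or more across both tissues was called higher or lower when its tissues differed by at least 1 in log2(FPKM + 1) and their libraries did not overlap. This scale understates differences of low genes. Of the hypothalamic markers compared, 11 of 11 were called higher in hypothalamus, against 13.3% of all genes. Of the hippocampal markers 7 of 8 were called lower, against 13.4%. All the hypothalamic ones but Hcrt reached 1 FPKM through their hypothalamus libraries alone. Slc17a7, Neurod6 and Neurod2 did so through their hippocampus libraries alone, so the counts say little about the lists. The number of reads is unknown.

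Between the tissues, 4 of the peptide genes were higher in hypothalamus (Gal, Adcyap1, Tac1 and Nmu), 3 were lower (Cck, Vip and Grp), and Nts and Nppc were neither. These are 9 of the 10 genes, since Nms fell under the level filter. Among all 10554 genes compared, 13.3% were called higher in hypothalamus and 13.4% lower, so 26.7% were called in either direction, against 7 of the 9 peptide genes. Libraries of the tissues did not overlap, whatever the size, for 53.4% of all genes and for 7 of the 9. The median difference was 0.21 over the 9 and -0.04 over all genes. With values as deposited the median of all genes stood at 0.18, and 65.3% of all calls were higher, in place of 49.8%; upper-quartile scaling gave 60.0%. In tissue pieces, fewer cells of a type and less RNA per cell cannot be told apart.

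**Figure D1:**
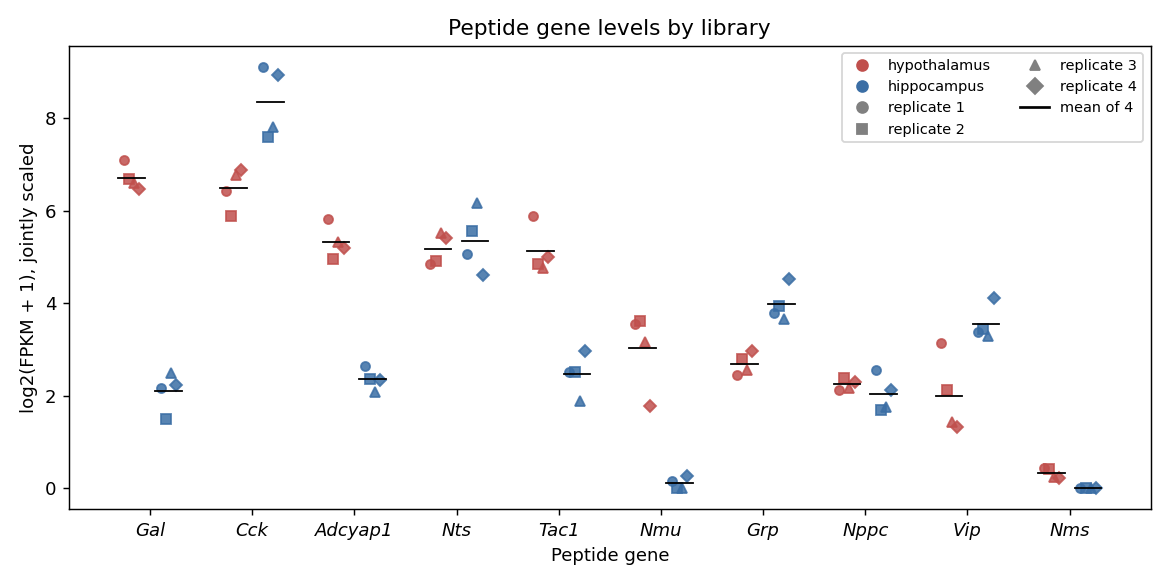
Level of each peptide gene in each library as log2(FPKM + 1), hypothalamus in red on the left of each gene and hippocampus in blue on the right; marker shapes are replicates and bars are means of 4. Gal, Adcyap1, Tac1 and Nmu lie apart with hypothalamus on top, Cck, Grp and Vip with hippocampus on top, and Nts and Nppc overlap.

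Gal showed the largest difference of the 10 on the log2(FPKM + 1) scale. Galanin is an inhibitory peptide of neurons that promote sleep, feeding and pituitary hormone release. Gal stood at 135.5, 102.2, 95.9 and 87.5 FPKM in hypothalamus replicates 1 to 4, against 3.49, 1.83, 4.60 and 3.70 FPKM in hippocampus. The lowest hypothalamus library lay far above the highest hippocampus library, at a ratio of means of 30.9 and a log2 difference of 4.62 ± 0.25 (SE, n = 4 each).

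Adcyap1 encodes PACAP, a peptide of ventromedial hypothalamic neurons and of the retinal input to the suprachiasmatic nucleus. It stood at 55.9, 30.1, 39.3 and 35.4 FPKM in hypothalamus, against 5.25, 4.18, 3.22 and 4.07 FPKM in hippocampus. The tissues did not overlap, and the log2 difference was 2.97 ± 0.22. Replicate 1 was the highest library in either tissue.

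Tac1, the precursor of the tachykinins substance P and neurokinin A, stood at 58.2, 27.7, 26.2 and 31.2 FPKM in hypothalamus, against 4.70, 4.69, 2.70 and 6.77 FPKM in hippocampus. All 4 hypothalamus libraries lay above all 4 of hippocampus, and replicate 1 of hypothalamus lay well above the other 3. The log2 difference was 2.66 ± 0.34, and 2.41 without that library.

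Nmu, whose peptide reduces feeding in rodents, was close to 0 in hippocampus. It stood at 10.7, 11.2, 8.01 and 2.45 FPKM in hypothalamus, against 0.12, 0, 0 and 0.19 FPKM in hippocampus. The tissues did not overlap, although hypothalamus replicate 4 was far below the other 3. The log2 difference was 2.93 ± 0.43, and 5.48 with a pseudocount of 0.1 in place of 1, so its size rests on that choice. Nmu passed the level filter through its hypothalamus libraries alone.

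Cck went the other way and was the most abundant of the 10 in hippocampus. Cholecystokinin is a satiety peptide of the gut and an abundant neuropeptide of the cortex and hippocampus. Cck stood at 84.9, 58.3, 108.9 and 116.6 FPKM in hypothalamus, against 551.6, 192.5, 223.2 and 487.5 FPKM in hippocampus. Every hippocampus library lay above every hypothalamus library, and within hippocampus replicates 1 and 4 stood apart from replicates 2 and 3. The ratio of hypothalamus to hippocampus means was 0.253, a log2 difference of -1.87 ± 0.44.

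Vip and Grp were likewise lower in hypothalamus, although both mark neurons of the suprachiasmatic nucleus. Vip stood at 7.88, 3.36, 1.69 and 1.49 FPKM in hypothalamus, against 9.38, 9.95, 8.78 and 16.4 FPKM in hippocampus. Hypothalamus replicate 1 came close to the hippocampus range and the other 3 lay well below it, with a log2 difference of -1.56 ± 0.46. With values as deposited or with upper-quartile scaling, replicate 1 overlapped hippocampus and the call was lost, at -1.36 and -1.44. Grp, a bombesin-like peptide, stood at 4.44, 5.95, 4.89 and 6.81 FPKM in hypothalamus, against 12.9, 14.4, 11.7 and 21.9 FPKM in hippocampus. Its libraries did not overlap, at -1.29 ± 0.22.

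**Figure D2:**
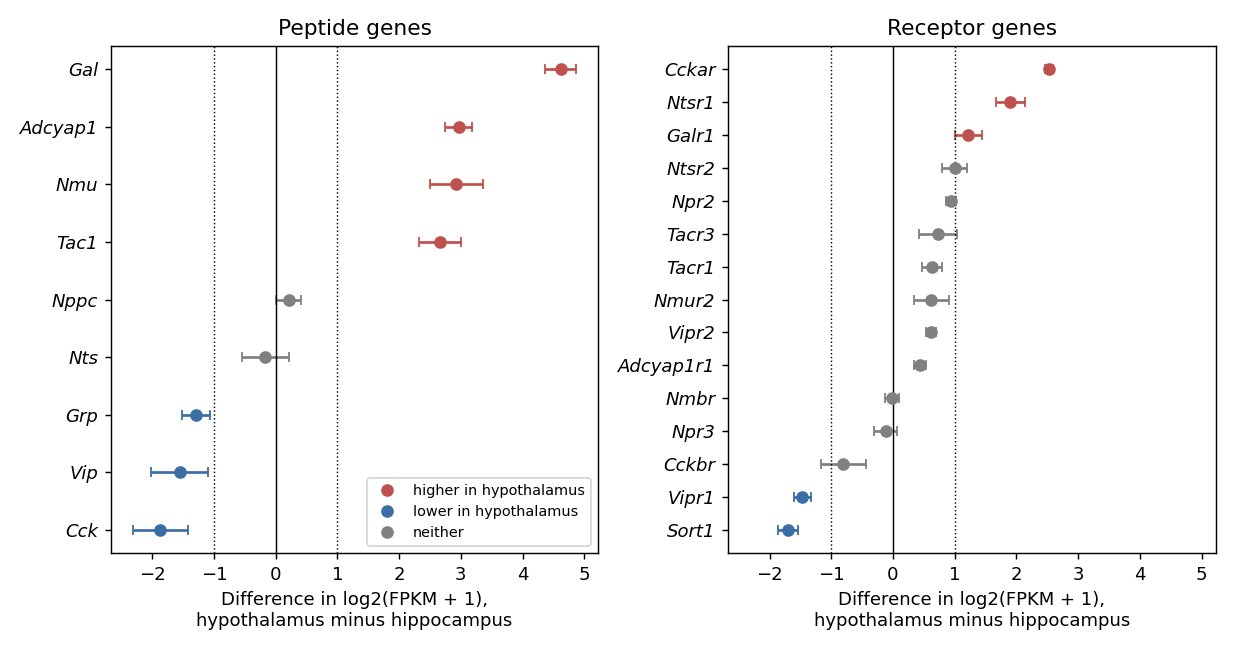
Difference in log2(FPKM + 1), hypothalamus minus hippocampus, of the 9 peptide genes (left) and the 15 receptor genes (right) that passed the level filter; points are differences of means of 4 libraries, bars are SE and dotted lines mark a difference of 1. Gal lies farthest to the right among the peptides at 4.62 and Cckar among the receptors at 2.53.

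Promoter letters are shown for a pair of genes that were higher in hypothalamus (Gal and Tac1) and a pair that were lower (Vip and Grp), to let the upstream sequence be read beside these levels. Each run is the 250 bases before the gene start in RefSeq's rat build GRCr8, 5′ to 3′ on the gene's strand. Capitals mark the cAMP response element core TGACG or its reverse complement CGTCA, the E-box CACGTG, and the TATA box TATAAA on the gene's strand.
Gal, chr1:210084573-210084822, minus strand: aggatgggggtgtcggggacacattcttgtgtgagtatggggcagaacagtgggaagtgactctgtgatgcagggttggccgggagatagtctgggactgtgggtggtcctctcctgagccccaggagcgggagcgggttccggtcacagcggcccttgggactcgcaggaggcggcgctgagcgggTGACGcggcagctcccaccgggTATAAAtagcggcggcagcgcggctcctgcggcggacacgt
Tac1, chr4:36645333-36645582, plus strand: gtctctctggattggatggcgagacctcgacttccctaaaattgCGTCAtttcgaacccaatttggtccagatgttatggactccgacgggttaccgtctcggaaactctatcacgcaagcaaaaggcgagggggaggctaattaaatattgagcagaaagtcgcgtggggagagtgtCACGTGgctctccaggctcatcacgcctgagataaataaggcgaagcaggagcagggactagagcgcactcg
Vip, chr1:44470230-44470479, plus strand: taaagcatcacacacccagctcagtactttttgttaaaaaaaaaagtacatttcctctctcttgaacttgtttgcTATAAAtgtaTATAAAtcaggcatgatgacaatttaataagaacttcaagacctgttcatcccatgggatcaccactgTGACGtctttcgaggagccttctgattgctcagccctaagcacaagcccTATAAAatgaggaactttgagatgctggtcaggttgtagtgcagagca
Grp, chr18:61658405-61658654, plus strand: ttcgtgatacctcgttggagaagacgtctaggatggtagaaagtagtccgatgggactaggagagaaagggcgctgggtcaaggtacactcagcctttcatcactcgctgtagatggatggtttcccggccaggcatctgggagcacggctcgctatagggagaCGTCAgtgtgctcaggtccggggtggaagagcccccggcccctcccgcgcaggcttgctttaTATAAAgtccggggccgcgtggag
The TGACG core lay at base -63 to -59 before the start of Gal, -206 to -202 for Tac1, -97 to -93 for Vip and -86 to -82 for Grp, so it was found in a pair with hypothalamus on top and in a pair with hippocampus on top. Promoters were listed for 8 of the 10 genes, not for Cck and Nms. Of the 8, 6 held TGACG on either strand, against 18.2% of 33469 rat promoters of the same length; Adcyap1 and Nppc did not. The full palindrome TGACGTCA, which contains the core, was in none of the 8 and in 1.59% of all promoters. TATAAA on the gene's strand was in 5 of the 8 and in 8.06% of all. CACGTG was in Tac1 and Nmu and in 5.59% of all, and the AP-1 letters TGANTCA, searched on both strands, were in Nts and Nmu and in 6.34% of all. A match is a string of letters in this window and was not tied to any level.

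Nts and Nppc did not differ by the measure used. Neurotensin lowers food intake and body temperature when given into the brain. Nts stood at 27.8, 29.1, 45.1 and 41.8 FPKM in hypothalamus, against 32.4, 46.0, 71.0 and 23.3 FPKM in hippocampus. Hippocampus held both the highest and the lowest of the 8 values, and the log2 difference was -0.17 ± 0.38. The hypothalamus value is a sum over a pair of loci, of which the larger alone gave a difference of -0.29. Nppc, which encodes a peptide that raises cyclic GMP, stood at 3.37, 4.21, 3.52 and 3.88 FPKM in hypothalamus, against 4.87, 2.23, 2.40 and 3.36 FPKM in hippocampus. The narrow hypothalamus range lay inside that of hippocampus, at a difference of 0.21 ± 0.21.

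Nms, which marks pacemaker neurons of the suprachiasmatic nucleus, lay near the floor. It was listed at 0.36, 0.33, 0.18 and 0.17 FPKM in hypothalamus and at 0 in all 4 hippocampus libraries, so no fold is given. In hypothalamus, low values of other loci show what a single fragment is worth relative to another library. In those steps Nms in replicate 2 was 1.96 times its value in replicate 3 and 1.97 times that in replicate 4, and replicates 3 and 4 were level at 1.01. These ratios lay close to whole numbers. Replicate 1 did not share the steps.

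Within a tissue, FPKM is per length and the genes can be ordered. In hypothalamus the order of means was Gal, Cck, Adcyap1, Nts, Tac1, Nmu, Grp, Nppc, Vip and Nms, at 105.3, 92.2, 40.2, 36.0, 35.8, 8.11, 5.52, 3.74, 3.60 and 0.26 FPKM. Neighbours kept their order in all 4 libraries for 4 of the 9 pairs: Cck over Adcyap1, Tac1 over Nmu, Grp over Nppc and Vip over Nms. Gal and Cck overlapped, with Gal on top in 2 of 4 libraries. In hippocampus the order was Cck, Nts, Grp, Vip, Tac1, Adcyap1, Gal, Nppc, Nmu and Nms, at 363.7, 43.2, 15.2, 11.1, 4.71, 4.18, 3.40, 3.21, 0.08 and 0 FPKM, and 5 of 9 pairs kept their order in all 4 libraries. From Tac1 through Adcyap1 and Gal to Nppc, each gene overlapped with the next, and Grp overlapped with Vip, although Grp was on top in 4 of 4 libraries. Cck made up 68.1 to 88.3% of the summed FPKM of the 10 genes in hippocampus libraries, whereas in hypothalamus libraries it made up 21.4 to 35.6%.

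The rank of a gene in its own library does not depend on a factor per library. Ranks of the 2 tissues were apart for all 7 called genes and for Nms, 8 of the 10. The 7 were called because their libraries did not overlap, so ranks apart add little for them. The share of all symbols with ranks apart was not counted. Gal lay above 94.6 to 97.0% of symbols in hypothalamus libraries and above 40.8 to 50.2% in hippocampus libraries. Vip lay above 37.2 to 59.0% in hypothalamus and 60.4 to 72.1% in hippocampus. Cck lay above 92.0 to 96.0% in hypothalamus and 98.2 to 99.4% in hippocampus, so it ranked high in both. Nts lay above 83.2 to 89.3% and 78.5 to 92.9% in hypothalamus and hippocampus libraries.

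**Figure D3:**
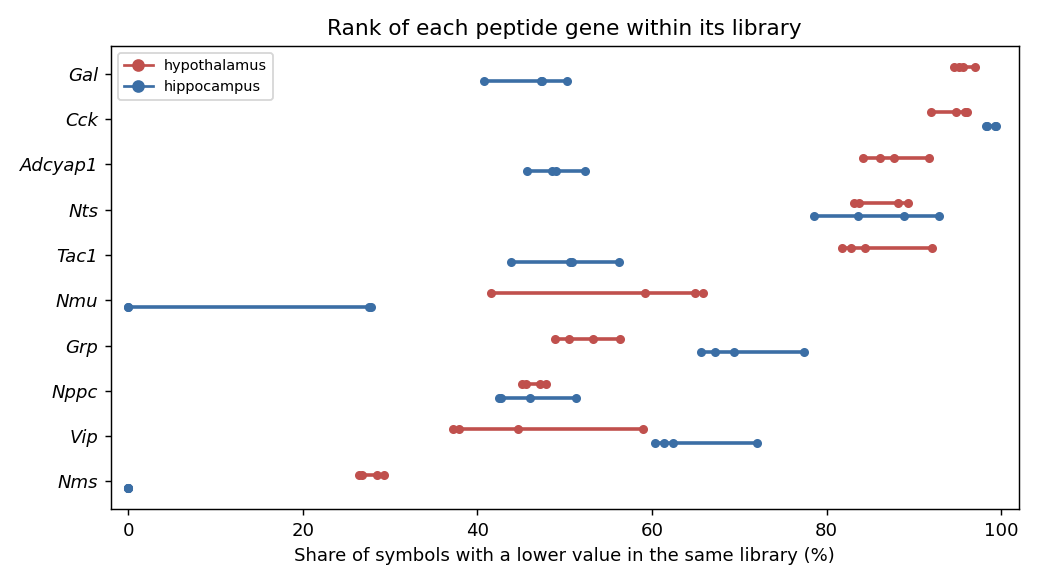
Share of the 15892 symbols with a lower value in the same library, for each peptide gene; dots are libraries, lines span the 4 libraries, hypothalamus in red above hippocampus in blue. Ranks are apart for 8 of the 10 genes and overlap for Nts and Nppc. The share of all symbols with ranks apart was not counted.

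The genes differed in how evenly they stood across libraries of a tissue. Spread was compared for genes that averaged 1 FPKM or more in the tissue, which leaves out Nms in both and Nmu in hippocampus. In hypothalamus Nmu and Vip had the widest spread, with SDs of log2(FPKM + 1) of 0.86 each, wider than 99.3% and 98.9% of genes within 1 log2 unit of their means. Nppc was the tightest of the 9, with an SD of 0.11 and 16.0% of such genes below it. In hippocampus Cck and Nts were the widest, with SDs of 0.77 and 0.68, each above 97.0% of genes at their level, and Adcyap1 was the tightest of the 8 at 0.22.

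Vip and Grp kept a near constant ratio in hippocampus and not in hypothalamus. Vip over Grp was 1.78, 0.56, 0.35 and 0.22 in hypothalamus replicates 1 to 4, against 0.73, 0.69, 0.75 and 0.75 in hippocampus. Ratios of several other pairs were also looked at, and how many pairs of genes keep a ratio this steady was not counted. The highest hippocampus library of Vip and of Grp was replicate 4. That library also held genes of the pineal gland, whose listed markers summed to 1.28, 4.10, 2.38 and 169.7 FPKM in hippocampus replicates 1 to 4 (0 of 3 compared were called between tissues; all 5 were above 0 in at least 1 hippocampus library). Most of that sum was Tph1, at 147.8 FPKM in replicate 4; Asmt and Crx were also highest there by far, Aanat was at most 0.22 FPKM in any hippocampus library, and Pde6b was highest in replicate 2. Choroid plexus markers summed to 60.4, 82.4, 6927 and 5166 FPKM in the same libraries (0 of 7 compared were called; Otx2 was at 0 in every library). In hypothalamus the sums were 1.36 to 2.40 FPKM for the pineal gland and 35.7 to 120.0 FPKM for choroid plexus. Without hippocampus replicates 3 and 4 the difference was -1.43 for Vip and -1.20 for Grp, and both kept their calls. Leaving out libraries cannot make tissues that were apart overlap, save through the factors, so the kept calls say little. In that setting 1605 of all genes were called higher and 1545 lower, against 1402 and 1414 with all libraries. The part of pineal or choroid plexus tissue in the Vip and Grp values was not tested.

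Hypothalamus replicate 1 was the highest library for 5 of the 10 genes: Gal, Vip, Tac1, Adcyap1 and Nms. It was the lowest for 3 of the 10: Nts, Grp and Nppc. The share of all genes that were highest in that library was not counted. Suprachiasmatic genes other than the peptides above did not share an order of libraries. Syt10, Six6 and Rorb were highest in replicate 1. In replicates 1 to 4 Syt10 stood at 5.16, 3.54, 2.87 and 2.66 FPKM and Six6 at 4.11, 3.99, 2.81 and 1.78 FPKM. Rorb stood at 7.79, 6.47, 6.16 and 5.47 FPKM. Avp, Six3 and Rgs16 were lowest in replicate 1, and Lhx1 was highest in replicate 4. Of 8 suprachiasmatic genes compared, 5 were higher in hypothalamus than in hippocampus, against 13.3% of all genes, and none was lower. Of the 5, Avp, Lhx1 and Six6 passed the level filter through their hypothalamus libraries alone, so the count says little about the list. Avp led the sum of the suprachiasmatic genes, which was 2078 to 7455 FPKM in hypothalamus against 14.2 to 23.0 FPKM in hippocampus. None of these genes was at 0 in every library of a tissue. Their part in the Vip values was not tested. Without replicate 1 the Vip difference was -1.93.

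Nmu was lowest in hypothalamus replicate 4, and of the pituitary genes listed Cga, Tshb, Tbx19 and Gh1 were lowest there too. Tbx19 stood at 2.42, 2.62, 3.22 and 1.92 FPKM in hypothalamus replicates 1 to 4, and Gh1 was at most 0.14 FPKM. Cga, the shared subunit of thyrotropin and the gonadotropins, stood at 293.2, 278.6, 162.3 and 18.2 FPKM in hypothalamus replicates 1 to 4, and Tshb, the thyrotropin beta subunit, at 5.50, 14.1, 11.6 and 1.83 FPKM. In hippocampus Cga was at most 0.15 FPKM and Tshb at most 0.08 FPKM. Lhb, the luteinizing hormone beta subunit, was instead highest in hypothalamus replicate 4, at 2.62, 6.72, 6.69 and 7.53 FPKM in hypothalamus replicates 1 to 4. Pou1f1, a transcription factor of the anterior lobe, stood at 27.7, 17.9, 14.9 and 16.4 FPKM in the same hypothalamus libraries. Of 5 pituitary markers compared, 4 were higher in hypothalamus, against 13.3% of all genes. Those 4, Cga, Tshb, Pou1f1 and Lhb, passed the level filter through their hypothalamus libraries alone. The count therefore says little about the list. The 8 listed summed to 45.9 to 331.7 FPKM in hypothalamus against 0.98 to 2.31 FPKM in hippocampus. Prl, the prolactin gene of the anterior lobe, was at 0 in all 8 libraries. The part of pituitary tissue in the Nmu values was not tested; without replicate 4 the Nmu difference was 3.33.

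**Figure D4:**
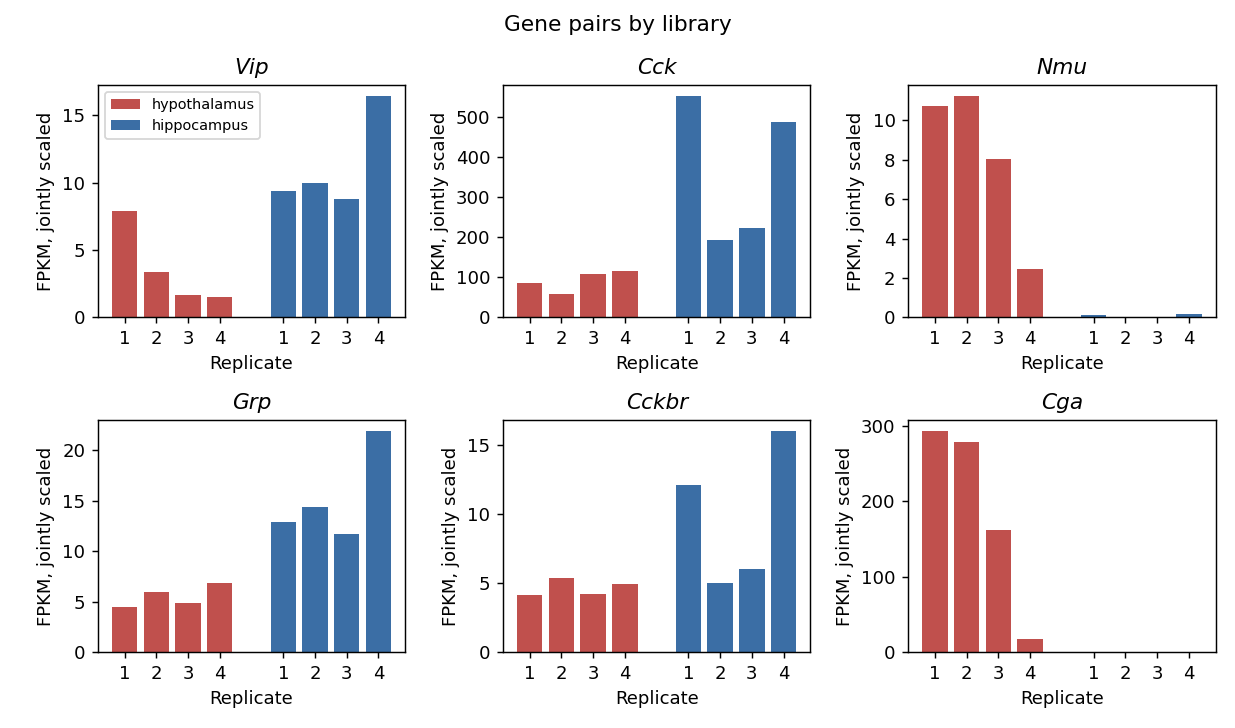
FPKM by replicate for Vip and Grp (left), Cck and its receptor gene Cckbr (middle), and Nmu and the pituitary subunit gene Cga (right), hypothalamus in red on the left of each panel and hippocampus in blue on the right. In hippocampus Cckbr, like Cck, is higher in replicates 1 and 4 than in 2 and 3, and in hypothalamus Nmu and Cga are both lowest in replicate 4.

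All 20 receptor genes on the list were in both tables, and 15 passed the level filter. Of these, 3 were higher in hypothalamus (Cckar, Ntsr1 and Galr1), 2 were lower (Sort1 and Vipr1) and 10 were neither, a share of 5 of 15 against 26.7% of all genes. The median difference of the 15 was 0.62. Cckar, Ntsr1 and Galr1 passed the filter through their hypothalamus libraries alone, and Vipr1 through its hippocampus libraries alone. The count therefore says little about the list.

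The receptor genes of galanin were low in both tissues. Galr1 stood at 2.34, 2.89, 2.51 and 1.97 FPKM in hypothalamus, against 0.18, 1.20, 0.40 and 0.28 FPKM in hippocampus, with no overlap and a difference of 1.22 ± 0.22. Galr3 stood at 1.09 to 1.74 FPKM in hypothalamus and was listed at 0 in hippocampus, under the filter. Galr2 was above 0 in a single hypothalamus library, at 0.08 FPKM.

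Of the VIP receptor genes, Vipr1 was called lower and Vipr2 was neither. Vipr1 stood at 0.11, 0.19, 0.22 and 0.17 FPKM in hypothalamus, against 2.64, 1.83, 1.70 and 2.97 FPKM in hippocampus. It was lower in hypothalamus, as Vip was, with no overlap and a difference of -1.47 ± 0.14. Vipr2, the receptor of the suprachiasmatic nucleus, stood at 2.06 to 2.43 FPKM in hypothalamus and 0.86 to 1.37 FPKM in hippocampus, apart but under the size limit at 0.62 ± 0.08. Adcyap1r1, the receptor selective for PACAP, was abundant in both, at 66.8 ± 6.1 FPKM in hypothalamus and 49.1 ± 5.3 FPKM in hippocampus.

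Of the cholecystokinin receptor genes, Cckar was called and Cckbr was not. Cckar, the receptor of the satiety response, stood at 4.31, 5.20, 4.56 and 5.42 FPKM in hypothalamus, against 0.05, 0, 0 and 0 FPKM in hippocampus. It was detected in every hypothalamus library and in a single hippocampus library, at a difference of 2.53 ± 0.07. Cckbr, the main brain receptor, stood at 4.17, 5.38, 4.25 and 4.92 FPKM in hypothalamus, against 12.2, 5.03, 6.03 and 16.1 FPKM in hippocampus. It overlapped between tissues, and in hippocampus its 2 highest libraries were replicates 1 and 4, as for Cck.

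Neurotensin receptor genes were at very different levels. Ntsr2, a receptor of astrocytes, was the most abundant of the 20, at 237 ± 18 FPKM in hypothalamus and 121 ± 33.5 FPKM in hippocampus, with a difference of 0.9996 just under the limit of 1 and past it in several alternatives. Ntsr1 stood at 2.58, 5.30, 5.79 and 6.21 FPKM in hypothalamus, against 0.52, 0.49, 0.51 and 0.68 FPKM in hippocampus, a difference of 1.90 ± 0.24. Ntsr1 and Galr1 are sums over a pair of loci in hypothalamus, as Sort1 is in hippocampus, and are not counted where symbols of a single locus are taken. Sort1, the sorting receptor sortilin that also binds neurotensin, was lower in hypothalamus at -1.70 ± 0.15. Of the tachykinin receptors, Tacr1 and Tacr3 were neither higher nor lower, at 0.63 ± 0.16 and 0.72 ± 0.31, and Tacr2 was under the filter. Npr2, the cyclase receptor of C-type natriuretic peptide, differed by 0.95 ± 0.08 with no overlap, Npr3, its clearance receptor, by -0.12 ± 0.19. The neuromedin and bombesin receptors Nmur1, Nmur2, Nmbr and Grpr averaged at most 1.43 FPKM in either tissue.

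Other peptides of the same families were compared in the same way. Of 12 on the list, 11 were in both tables and 6 passed the filter, of which 4 were higher in hypothalamus and none lower, against 13.3% and 13.4% of all genes. Of the 4, Ghrh, Gast and Galp passed the filter through their hypothalamus libraries alone, so the count says little about the list. Ghrh, the growth hormone-releasing hormone gene, of the family of Vip and Adcyap1, stood at 19.1 ± 8.1 FPKM in hypothalamus and 0.11 ± 0.04 FPKM in hippocampus. Tac2, the tables' symbol for the neurokinin B precursor, stood at 174 ± 20.9 FPKM against 29.7 ± 10.1 FPKM, so it was higher than Tac1 in either tissue. Gast, the gastrin gene of the family of Cck, stood at 5.94 ± 0.86 FPKM in hypothalamus against 0.09 ± 0.12 FPKM, and thus lay on the opposite side to Cck. Galp, the galanin-like peptide of the arcuate nucleus, stood at 2.51 ± 1.55 FPKM against 0.02 ± 0.05 FPKM. Of 8 peptidases compared that cut such peptides, 1 was higher, close to the 13.3% of all genes (Ece1, endothelin-converting enzyme, at 22.7 ± 5.3 FPKM in hypothalamus and 8.15 ± 1.29 FPKM in hippocampus), none was lower and 7 were neither.

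Genes with the most similar pattern were found among the 8065 genes that averaged 5 FPKM or more, by the root mean square distance in log2(FPKM + 1) over the 8 libraries after centring each gene. For Gal they were Hdc, the histamine-forming enzyme, and Resp18, an endocrine secretory protein gene, at distances of 0.26 and 0.29. For Tac1 they were Cidea and Penk, the enkephalin precursor, at 0.25 and 0.29, and for Adcyap1 Nap1l5 and Minos1 at 0.15 and 0.24. For Nmu the closest was Agrp, the arcuate feeding peptide, at 0.35, and Sytl4 followed at 0.46. For Cck they were Nrgn, a postsynaptic calmodulin-binding protein gene, and Camk2n2 at 0.30 and 0.31. For Vip the closest was Rps6, a ribosomal protein gene, at 0.19, ahead of Rwdd3 at 0.35, and for Grp they were Uap1 and Pank1 at 0.17 and 0.18. For Nts they were Ttll9 and Tjap1 at 0.26 and 0.28, and for Nppc Syngr3 and Hspa2 at 0.09 and 0.09. Nms, nearly flat on this scale, lay closest to Ddx27 and Creg1 at 0.06 and 0.07.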

How the data were processed

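Per the labels' protocols, libraries were made from poly-A RNA and read on a HiSeq instrument. The deposited FPKM of the authors fill 2 tables, 1 per tissue, with a status beside each value and no coordinates. Cufflinks, Cuffdiff, Bowtie, Bowtie2, TopHat, TopHat2 and the build rn5 are named, per the submitters' processing notes, and tool versions were not given in the sources used here. No locus of the 10 genes carried a status other than OK.

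Loci with the same symbol were added up in FPKM (Nms is spelled in capitals in the tables), scaled by median-of-ratios factors over symbols in both tables, and compared as log2(FPKM + 1) with Python 3.11.15, numpy 2.4.6 and pandas 2.3.3. Depth is unknown: among replicates 2, 3 and 4 of a tissue, 40.6 to 56.8% of loci under 0.05 FPKM shared 1 ratio within 0.01 (natural log), and with replicate 1 at most 6.25%, so relative depth can be read for those 3 alone.

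The genes and lists were chosen with earlier results of these data known, and the neocortex list after the values had been seen. Named genes are the 10, all receptors, from each other list the 3 called genes with the largest differences and the 3 with the highest means, and the 2 nearest genes by pattern; some that this rule names are not printed. Syt10, Six6, Rorb, Lhb, Tbx19, Gh1, Galp, Aanat, Pde6b, Gapdh, Prl, Otx2, Hcrt, Neurod2 and Etv1 were chosen after their values were seen. Alternatives covered scaling, pseudocount, filter, loci, status, call rule and left-out libraries. Promoters come from RefSeq.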

Additional observations from a re-analysis of the deposited data

Results flagged for a closer look

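The 10 peptide genes and 20 receptor genes in each tissue gave 43 groups of 4 libraries with a mean of at least 1 FPKM. Of the 43, 3 held a library far from the other 3 by Dixon's criterion. For normally spread values chance alone flags about 1 group in 20, so 3 of 43 is near that share. The criterion was applied to FPKM and not to log2(FPKM + 1), where a high value stands out less. Whether the 1 in 20 holds for FPKM was not checked. Tac1 in hypothalamus replicate 1 was at 58.2 FPKM, against 26.2 to 31.2 FPKM in the others. Tacr1, the receptor gene for substance P, was low in the same library, at 2.45 FPKM against 3.61 to 3.69 FPKM. Vip in hippocampus replicate 4 was at 16.4 FPKM, against 8.78 to 9.95 FPKM in the others.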

How the results depend on the processing

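Of the 9 peptide genes compared, Gal, Tac1, Adcyap1, Cck and Grp kept direction and call under all 20 alternatives, with ranges of 4.42 to 4.96, 2.41 to 2.89, 2.80 to 3.22, -2.13 to -1.60 and -1.42 to -1.08. Among these alternatives, no filter, the filter at 5 FPKM, no limit on size and the replicate block leave each difference as it is. They cannot take the call from a called gene that passes the filter. Leaving out libraries cannot make tissues that were apart overlap, save through small changes of the factors. In those settings a call could be lost mainly on the size of the difference. Nmu kept its call in the 19 where it passed the filter, from 2.72 to 5.48. Vip ranged from -2.0 to -1.32 and lost its call with values as deposited and with upper-quartile scaling, where its libraries overlapped. Nts turned to 0.058 as deposited, and leaving out 1 library gave -0.42 to 0.10, the highest without hippocampus replicate 3. Nmbr turned to 0.11 as deposited, 0.061 under upper-quartile scaling and 0.015 when hippocampus replicates 3 and 4 were left out, and the difference of Nmbr was -0.039 to 0.071 when 1 library was left out. Npr3 turned to 0.037 as deposited. Values for the difference of Npr3 were -0.22 to 0.011 when 1 was left out.

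Receptor genes higher in hypothalamus numbered 5 with values as deposited, 5 under quantile or upper-quartile scaling, 5 with a pseudocount of 0.1, 0 with a filter at 5 FPKM, 1 with single-locus symbols, 8 with no limit on size, and 3 to 5 when 1 library was left out (5 without hypothalamus replicate 1). The 2 added where 5 were called are Ntsr2 and Npr2. Those lower numbered 1 with the filter at 5 FPKM, 1 with single-locus symbols, 1 without hippocampus replicates 3 and 4, and 1 to 3 when 1 library was left out (1 without hippocampus replicate 4, where Vipr1 fell under the filter). The stricter filter and the single-locus rule leave fewer genes; elsewhere the cause was not tested. With no limit on size, 2708 of all genes were higher and 2926 lower.

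Whether a replicate number marks the same animal in both tissues is not in the labels. Same-numbered libraries correlated at -0.08 to 0.14 across genes, and 1 of 4 correlated best with its own number. Such correlations cannot tell whether libraries share an animal. With the replicate number as a block, 1431 genes were higher and 1431 lower, and the counts of peptide genes were 4 and 3. Over all alternatives, of 595 differences of single genes, 558 kept direction and side of the limit, 26 passed it anew, 2 lost it and 9 changed sign. The 595 include settings that leave each difference as it is, namely the filter changes, no limit on size and the replicate block. Levels under about 1 FPKM rest on few fragments.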

Other observations

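Genes of GABA neurons, which include the Vip and Cck interneurons of the hippocampus, showed no common direction: of 12 compared, 2 were higher in hypothalamus, 2 lower and 8 neither, a share close to the 26.7% called among all genes. Gad2, which makes GABA, stood at 147 ± 9.0 FPKM in hypothalamus and 43.8 ± 13.8 FPKM in hippocampus. Cnr1, the cannabinoid receptor of Cck interneurons, stood at 16.6 ± 0.66 FPKM against 76.5 ± 35.9 FPKM, and its highest hippocampus library was replicate 2, the library with the lowest Cck.

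Markers of neighbouring regions were counted in the same way, to be read against 13.3% of all genes called higher and 13.4% lower. Of 6 thalamic genes compared, 2 were higher in hypothalamus and none lower, with sums of 32.8 to 49.7 FPKM in hypothalamus and 22.6 to 49.4 FPKM in hippocampus. Of 8 striatal genes, 2 were higher and 2 lower, with sums of 79.3 to 113.9 FPKM and 59.9 to 97.3 FPKM. Of 10 neocortical genes, none was higher and 6 were lower. Their sums were 54.5 to 65.4 FPKM in hypothalamus, against 186.8, 171.5, 136.2 and 189.6 FPKM in hippocampus replicates 1 to 4, where Cck was highest in replicates 1 and 4. The sums hide members that went different ways. Rasgrf2, with the highest hippocampus mean of the list, was highest in replicate 2, the library with the lowest Cck. Tle4 and Etv1 were highest there too, and the rest of the 10 in replicate 1 or 4. The list was chosen after the values had been seen. The part of neocortical genes in the Cck values was not tested. Ace, a peptidase chosen after its values were seen, stood at 4.63 to 7.55 FPKM in hypothalamus and at 3.39, 3.36, 49.3 and 28.7 FPKM in hippocampus replicates 1 to 4.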
